A study of Homo sapiens with 6 samples.

Results

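The RNA of glycolysis, the pentose phosphate pathway and the citrate cycle was followed through 42 genes of the 35410 listed in the count table. The genes were taken by symbol from a list that runs from glucose uptake to pyruvate and lactate, and on through the pyruvate dehydrogenase complex, the pentose phosphate enzymes and the citrate cycle to ATP citrate lyase. Their counts in the line labelled SEM::EGR3 were compared with those in the line labelled SEM::mock. All 42 symbols were found in the table and 41 had enough counts to be tested.

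Glycolysis splits glucose into pyruvate in the cytosol, and lactate dehydrogenase can turn that pyruvate into lactate. The pyruvate dehydrogenase complex instead feeds it to the citrate cycle in the mitochondrion, and this gate is closed by pyruvate dehydrogenase kinases and opened by phosphatases. The pentose phosphate pathway branches off at glucose 6-phosphate and supplies NADPH and ribose for nucleotides. Proliferating leukemia cells, like other dividing cells, draw on these routes for energy and for building blocks, and several steps have isozymes whose proportions differ between tissues.

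SEM is an established human B cell precursor leukemia line with the KMT2A::AFF1 fusion, and the labels describe the samples as proB cells. SEM::mock carries an empty vector, and SEM::EGR3 carries a vector for EGR3, a zinc finger transcription factor of the early growth response family. The vectors are inducible by doxycycline, and both lines had received 1 µg/mL doxycycline for 48 h, so that the induction is shared by the groups. Each group has 3 biological replicates, and no source used here says whether a line is a clone or a pool, or whether replicates were separate inductions. The p-values therefore measure the spread between these samples, which may be technical. Libraries were made by MACE-Seq, which sequences the 3′ ends of polyadenylated transcripts, and held 5286115 to 6181388 listed counts in SEM::mock and 7293092 to 15106018 in SEM::EGR3.

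The libraries differed in markers of cell identity far beyond EGR3 itself. The counts of EGR3 were 8, 10 and 6 in SEM::mock replicates 1 to 3, against 9768, 4952 and 5557 in SEM::EGR3. Summed over 14 B-lineage genes, the level was 2.65 to 5.88 CPM in the libraries labelled SEM::mock and 673 to 707 CPM in SEM::EGR3, where CPM is the count scaled to a library total of 1000000 with TMM normalization factors. In SEM::mock 11 of these 14 genes had at most 3 counts in each library, with EBF1 and IGHM at 0 and PAX5 at 1 to 2 counts, so these libraries go against the proB label. The SEM::EGR3 libraries did not hold all of the list either. There BLNK, DNTT and RAG2, 3 of the 14, had at most 3 counts in each library, and VPREB1 had 8, 6 and 5. The fusion target HOXA7 and CDKN2A were also at 0 in every SEM::mock library. Sums over 6 fusion target genes were 21.6 to 23.9 CPM against 252 to 276 CPM, and over 3 genes of the 9p21 segment 0 to 0.196 CPM against 174 to 177 CPM. Erythroid genes were abundant in all 6 libraries, with a sum over 13 genes of 5050 to 5408 CPM in SEM::mock and 6249 to 6491 CPM in SEM::EGR3. Myeloid genes summed to 142 to 150.1 CPM against 194 to 197 CPM over 9 genes, and T cell genes to 86.9 to 99.6 CPM against 138 to 147 CPM over 9 genes. Fibroblast and epithelial genes summed to 750 to 782 CPM against 453 to 477 CPM over 8 genes, and 3 listed megakaryocyte genes to 6.08 to 7.87 CPM against 12.2 to 13.5 CPM. These sums hold genes that moved in opposite directions, with 3 higher and 9 lower of 12 tested erythroid genes, 3 and 1 of 5 myeloid, 4 and 3 of 7 T cell, and 2 and 3 of 5 fibroblast and epithelial genes. The differences hold for every library of a line, so no comparison can leave them out. The part of EGR3 and that of any other difference between the lines cannot be told apart in any value given here.

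Of the 41 tested genes, 13 rose and 17 fell in SEM::EGR3 with adjusted p-values under 0.05 (edgeR quasi-likelihood test, Benjamini-Hochberg over 15465 genes), and 11 were not called. Over all 15465 tested genes 36.5% were higher and 32.0% lower, 68.5% in either direction, so a call in itself sets the metabolic genes little apart. The libraries of the lines did not overlap for 30 of the 41 genes (73.2%), against 70.1% of all tested genes. Large differences were few. The log2 fold change (SEM::EGR3 over SEM::mock) passed 1 in size for 5 of the 41 genes (12.2%), against 25.2% of all tested genes and 15.8% of the 12801 genes whose counts reached 10 in each of the 6 libraries, as did those of all 41. PDHB, PDK3 and IDH2 were the 3 higher by that size (all genes, 16.7%), and SLC2A3 and TALDO1 the 2 lower (all genes, 8.50%). Without SEM::mock replicate 1, SLC2A1 and HK1 also passed this size, which made 4 lower. The median log2 fold change was -0.10 over the 41 genes and 0.03 over all genes, and the median size was 0.38 against 0.46. Summed over the 42 genes, the share of the listed counts was 1.23% ± 0.0238 in SEM::mock and 1.04% ± 0.00377 in SEM::EGR3 (SD, n = 3). In bulk RNA, fewer cells with a transcript and less of it per cell cannot be told apart.

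**Figure D1:**
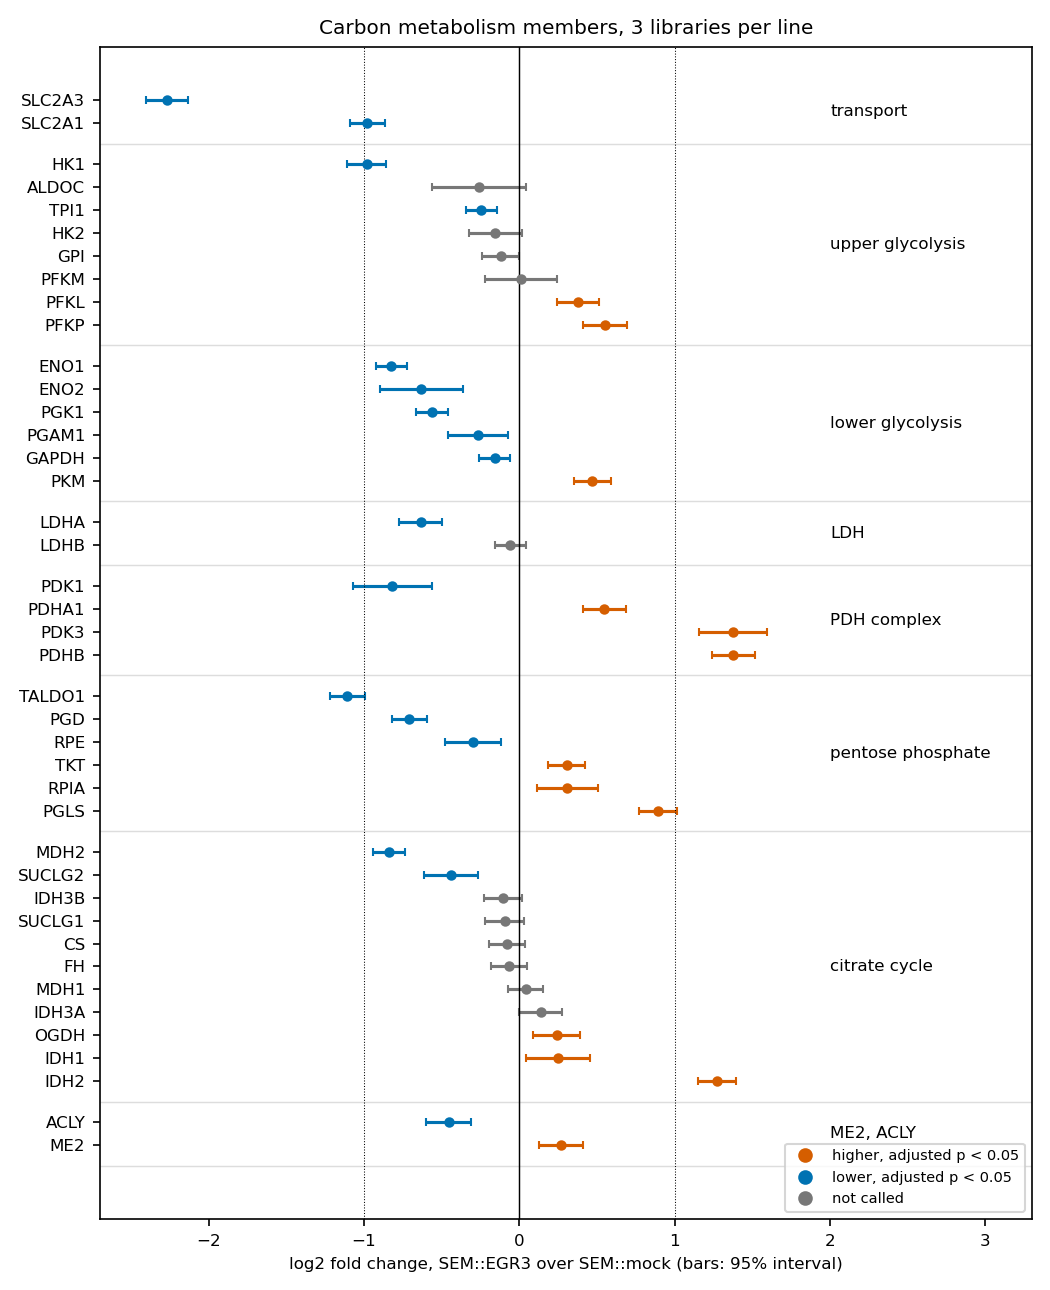
Log2 fold change of SEM::EGR3 over SEM::mock for the 41 tested genes, ordered within each pathway step, with 95% intervals from the edgeR fit and dotted lines at a size of 1. Only SLC2A3 and TALDO1 lie beyond the left line, and PDHB, PDK3 and IDH2 lie beyond the right line, while most citrate cycle genes sit close to 0.

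Both glucose transporters fell, and SLC2A3 fell further than any other of the 41 genes. SLC2A3 encodes GLUT3, a transporter with a high affinity for glucose, and lies at chr12:7919230-7936275 on the minus strand (GRCh38, GENCODE 29). Its level was 146, 148 and 154 CPM in SEM::mock and 30.3, 31.9 and 31.2 CPM in SEM::EGR3. The lowest SEM::mock library stood far above the highest SEM::EGR3 library, with means of 149 ± 4.39 and 31.1 ± 0.838 CPM (SD, n = 3), a log2 fold change of -2.27 (SE 0.0648) and an adjusted p of 7.70e-20 by edgeR. SLC2A1, which encodes the widely expressed transporter GLUT1, was at 258, 275 and 258 CPM against 131, 138 and 132 CPM. It lies at chr1:42925375-42959176 on the minus strand. The groups did not overlap, and the log2 fold change was -0.98 (SE 0.0546, adjusted p 4.42e-14, edgeR). The antisense row SLC2A1-AS1 held at most 8.42% as many counts as SLC2A1 in any library. Together, both transporters took 0.0400% ± 0.000702 of the listed counts in SEM::mock and 0.0168% ± 0.000352 in SEM::EGR3 (SD, n = 3).

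In upper glycolysis, from hexokinase to triose phosphate isomerase, 2 of 8 tested genes rose, 2 fell and 4 were not called. Over all tested genes 36.5% rose and 32.0% fell. Hexokinase traps glucose in the cell as glucose 6-phosphate. HK1 (chr10:69269984-69401884, plus strand) was at 151, 163 and 176 CPM in SEM::mock and at 81.9, 84.7 and 81.1 CPM in SEM::EGR3. It fell by 0.98 on the log2 scale (SE 0.0620, adjusted p 4.90e-13, edgeR), with no overlap. HK2, the hexokinase that is inducible in many tumors, was at 41.4, 39.2 and 39.8 CPM against 33.6, 39.6 and 36.1 CPM. Its groups overlapped, and the log2 fold change of -0.15 (SE 0.0831, 95% interval -0.33 to 0.02) was not called (adjusted p 0.104, edgeR). HK2 was called lower without SEM::EGR3 replicate 2 (adjusted p 0.0370).

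Phosphofructokinase catalyses the committed step of glycolysis as a tetramer of liver, muscle and platelet type subunits. PFKL was at 116, 130.0 and 136 CPM in SEM::mock and at 166, 178 and 152 CPM in SEM::EGR3, a log2 fold change of 0.38 (SE 0.0659, adjusted p 1.82e-05, edgeR). PFKP rose from 50.4, 56.6 and 53.3 CPM to 79.9, 80.4 and 74.9 CPM, a log2 fold change of 0.55 (SE 0.0690, adjusted p 1.29e-07, edgeR). Neither gene had overlapping groups. PFKM was at 17.8, 17.9 and 20.6 CPM against 19.5, 16.6 and 20.1 CPM, and was not called with a log2 fold change of 0.01 (95% interval -0.22 to 0.25, adjusted p 0.925, edgeR). So the genes of the liver and platelet subunits went up, whereas the muscle subunit gene was not called. Of the remaining genes, TPI1, triose phosphate isomerase, fell by 0.24 on the log2 scale, and GPI, the isomerase that follows hexokinase, was not called with a log2 fold change of -0.12, but was called lower without SEM::mock replicate 1 (adjusted p 0.00442). ALDOC, an aldolase gene best known from brain, was not called either, with a log2 fold change of -0.26 and an interval from -0.56 to 0.05. It was called lower without SEM::mock replicate 1 (adjusted p 0.0177) or SEM::EGR3 replicate 2 (0.00902).

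ALDOA, the main aldolase gene of most tissues, could not be measured. Its counts were 1, 1 and 1 in SEM::mock, whereas SEM::EGR3 had 2, 1 and 0, all at or under the limit of 3 counts, which covers counting error only. In GENCODE 29, 42.3% of its exon bases are shared on the same strand with AC093512.2, a gene that is listed at 0 in every library. Whether reads from the shared bases were left uncounted was not tested. Nothing can be said of aldolase A from this table.

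From glyceraldehyde 3-phosphate to pyruvate, 5 of 6 genes of lower glycolysis fell and 1 rose, against 32.0% and 36.5% of all tested genes. ENO1, which encodes the enolase of most cells (chr1:8861000-8879250, minus strand), was at 2534, 2722 and 2593 CPM in SEM::mock and at 1473, 1483 and 1476 CPM in SEM::EGR3. The SEM::EGR3 libraries lay close together and below every SEM::mock library, with a log2 fold change of -0.82 (SE 0.0478, adjusted p 9.44e-14, edgeR). PGK1, phosphoglycerate kinase and the first ATP-forming step, fell by 0.56 on the log2 scale from a mean of 601 ± 11.6 to 407 ± 14.1 CPM (SD, n = 3). ENO2, known as the neuronal enolase, fell by 0.63 from 16.3 ± 0.271 to 10.4 ± 1.39 CPM (SD, n = 3). GAPDH, a gene often used for normalization, had 2421, 2537 and 2437 CPM against 2154, 2313 and 2156 CPM. Its groups did not overlap, but the log2 fold change was small at -0.16 (SE 0.0485, adjusted p 0.00549, edgeR) and was not called without normalization factors (adjusted p 0.123). The 43 listed GAPDH pseudogene rows held 2.65% to 3.41% as many counts as GAPDH. PGAM1, phosphoglycerate mutase, fell by 0.27 (adjusted p 0.0154, edgeR) with overlapping groups, and its call was lost without SEM::mock replicate 3 (adjusted p 0.0502), SEM::EGR3 replicate 1 (0.0928) or SEM::EGR3 replicate 3 (0.0975).

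PKM, which encodes the pyruvate kinase of most tissues outside liver and red cells, moved the other way. Its level was 372, 434 and 417 CPM in SEM::mock and 598, 547 and 548 CPM in SEM::EGR3. All SEM::EGR3 libraries were higher, with a log2 fold change of 0.47 (SE 0.0582, adjusted p 1.17e-07, edgeR). The table has 1 value per gene, so the splice forms of PKM were not separated. With transport and lactate dehydrogenase included, 10 of 18 tested glycolysis genes fell, 3 rose (PFKL, PFKP and PKM) and 5 were not called. These are 55.6% lower and 16.7% higher, against 32.0% and 36.5% of all tested genes. The median log2 fold change of the 18 was -0.25.

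**Figure D2:**
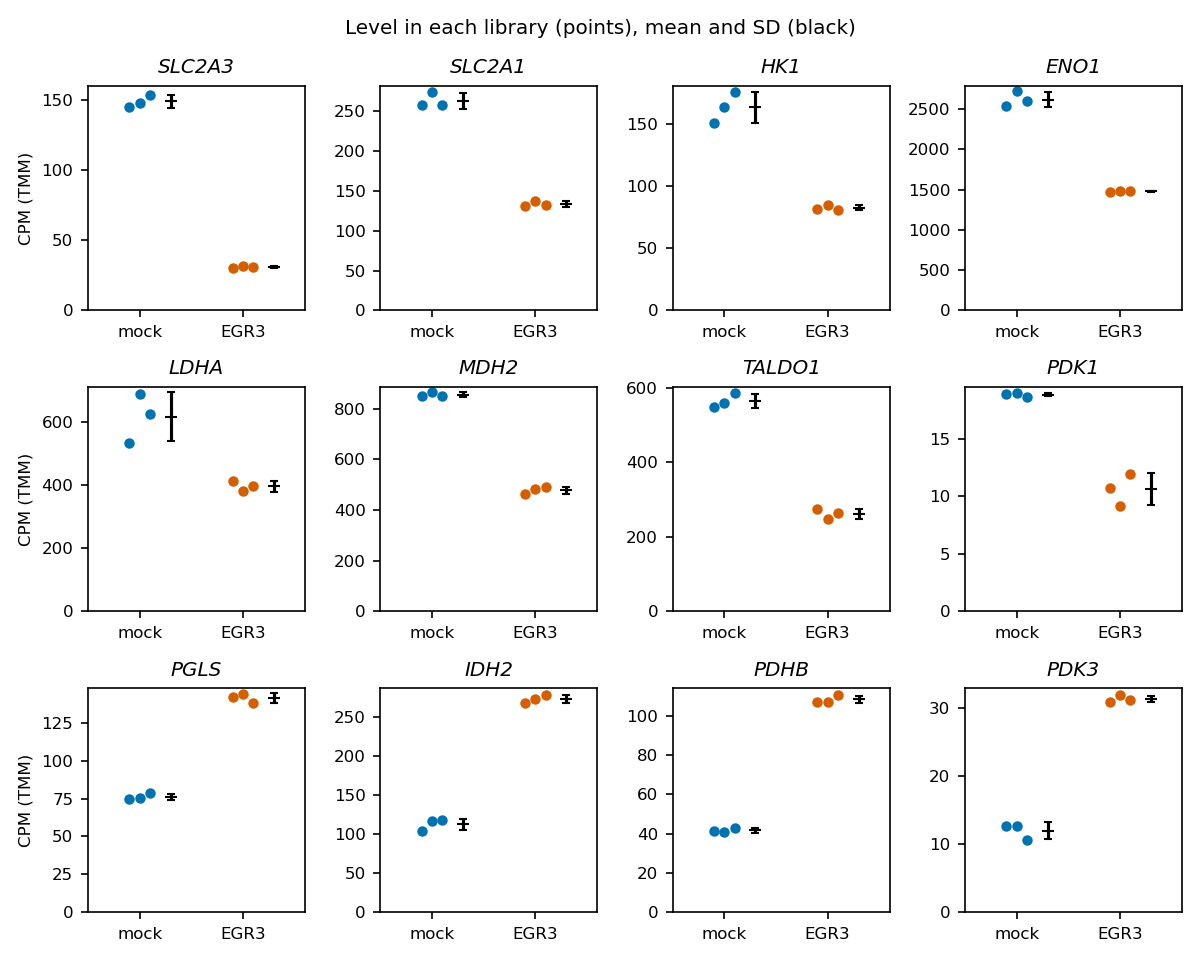
Level in CPM of 12 genes in each library (points) with the mean and SD of 3 replicates (black), on linear axes that start at 0. In all 12 panels the points of SEM::mock and SEM::EGR3 do not overlap, with SLC2A3 falling from 149 to 31.1 CPM and PDHB rising from 41.7 to 108 CPM on average.

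Lactate dehydrogenase is a tetramer of A and B subunits, of which A prevails in muscle and in many tumors and B in heart. LDHA (chr11:18394388-18408425, plus strand) was at 535, 690.4 and 626 CPM in SEM::mock and at 415, 381 and 396 CPM in SEM::EGR3. It fell by 0.63 on the log2 scale (SE 0.0668, adjusted p 7.50e-09, edgeR), although the SEM::mock libraries were spread widely. LDHB was at 647, 682 and 653 CPM against 636, 621 and 647 CPM, and its log2 fold change of -0.06 (95% interval -0.16 to 0.04) was not called (adjusted p 0.300, edgeR). LDHB made up 51.8% ± 2.63 of the counts of both genes in SEM::mock and 61.5% ± 0.867 in SEM::EGR3 (SD, n = 3). LDHB shares 33.4% of its exon bases with AC010197.2 on the same strand, and its value carries that uncertainty.

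Around the pyruvate dehydrogenase complex, 3 of 4 genes rose, against 36.5% of all tested genes. PDHB encodes the beta subunit of the E1 component, which decarboxylates pyruvate, and lies at chr3:58427630-58433857 on the minus strand. Its level was 41.4, 40.7 and 43.1 CPM in SEM::mock and 107, 107 and 111 CPM in SEM::EGR3. Every SEM::EGR3 library stood far above every SEM::mock library, a log2 fold change of 1.38 (SE 0.0666, adjusted p 2.65e-15, edgeR). PDHA1, the X-linked alpha subunit of the same component (chrX:19343893-19361705, plus strand), was at 80.4, 71.5 and 83.5 CPM against 109, 121 and 115 CPM. It rose less, by a log2 fold change of 0.55 (SE 0.0672, adjusted p 9.95e-08, edgeR). PDHB thus took 34.8% ± 1.31 of the counts of both subunit genes in SEM::mock and 48.5% ± 1.38 in SEM::EGR3 (SD, n = 3).

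The kinases that shut off this complex changed in opposite directions. PDK1, an isozyme known to be induced in hypoxia (chr2:172555373-172608669, plus strand), was at 18.9, 18.9 and 18.6 CPM in SEM::mock and at 10.7, 9.16 and 11.9 CPM in SEM::EGR3. It fell by 0.82 on the log2 scale (SE 0.124, adjusted p 2.59e-06, edgeR). PDK3 (chrX:24465221-24541862, plus strand) was at 12.7, 12.7 and 10.6 CPM against 31.0, 31.9 and 31.3 CPM, a log2 fold change of 1.38 (SE 0.107, adjusted p 3.20e-11, edgeR). Neither gene had overlapping groups. PDK3 made up 40.2%, 40.2% and 36.2% of the counts of this kinase pair in SEM::mock and 74.3%, 77.7% and 72.4% in SEM::EGR3. The greater part of the pair's counts therefore came from PDK1 in SEM::mock and from PDK3 in SEM::EGR3, with a difference in the log2 ratio of 2.22. This holds for the pair alone. PDK2, outside the pair and chosen after its values were seen, had a mean of 19.1 CPM in SEM::mock, against 18.8 CPM for PDK1. In SEM::EGR3 its mean was 37.4 CPM, against 31.4 CPM for PDK3.

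The other genes at this branch point belong to a list of 77 further pathway genes, of which 75 are listed and 57 were tested. That list was drawn up with earlier results of these data known. Of these 57, 22 rose (38.6%), 17 fell (29.8%) and 18 were not called, with a median log2 fold change of 0.05. The shares are near the 36.5% and 32.0% of all tested genes. By the rule of size, PDP1, a phosphatase that reactivates pyruvate dehydrogenase, is named with a log2 fold change of 3.27 (SE 0.185, adjusted p 5.70e-14, edgeR). Its counts were 17, 16 and 8 in SEM::mock, whereas SEM::EGR3 had 366, 156 and 240. The lactate and pyruvate carriers SLC16A3 and SLC16A7 also rose, by a log2 fold change of 3.23 and 3.45. Both were scarce in SEM::mock. SLC16A3 had 16, 27 and 12 counts there against 462, 245 and 275 in SEM::EGR3, and SLC16A7 had 9, 4 and 2 against 158, 66 and 95. Outside that rule and chosen after their values were seen, the phosphatase gene PDP2 rose by 1.70, and PDK4 and PDK2 by 1.12 and 0.96. The subunits MPC1 and MPC2 of the mitochondrial pyruvate carrier rose by 0.77 and 0.94. In contrast, DLAT, the E2 component of the complex, fell by 0.64, and the carrier SLC16A1 fell by 0.28. DLD, the E3 component, and PDPR, a regulator of the phosphatase, fell by 0.30 and 0.23. The genes PDK2, PDK3 and PDK4 of the kinases thus rose together with PDP1 and PDP2, while the subunits of the complex did not move together.

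**Figure D3:**
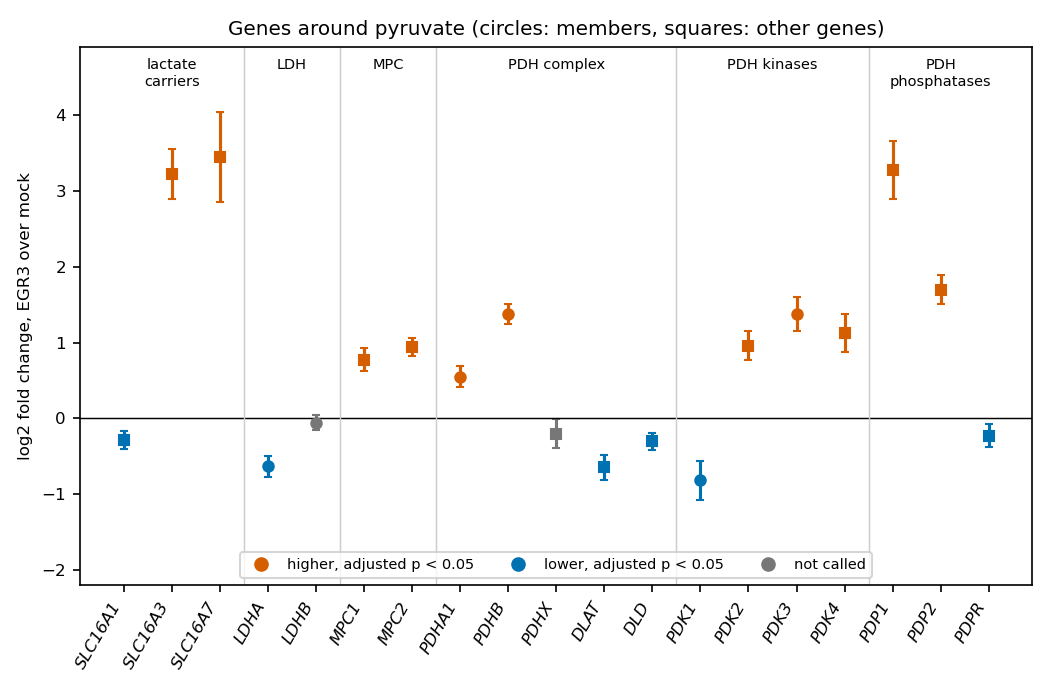
Log2 fold change of SEM::EGR3 over SEM::mock with 95% intervals for genes around pyruvate, with members as circles and other pathway genes as squares. PDP1, SLC16A3 and SLC16A7 lie above 3, PDHB and PDK3 at 1.38, and LDHA, DLAT and PDK1 below 0.

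In the pentose phosphate pathway 3 of 6 genes rose and 3 fell, and none was left uncalled. Over all tested genes 68.5% were called in either direction. TALDO1, transaldolase of the non-oxidative branch (chr11:747329-765024, plus strand), was at 549, 558 and 585 CPM in SEM::mock and at 274, 246 and 262 CPM in SEM::EGR3. The groups lay far apart, with a log2 fold change of -1.11 (SE 0.0539, adjusted p 2.96e-15, edgeR). PGD, the NADPH-forming 6-phosphogluconate dehydrogenase (chr1:10398592-10420144, plus strand), was at 248, 238 and 259 CPM against 149, 156 and 151 CPM. It fell by 0.71 on the log2 scale (SE 0.0547, adjusted p 2.52e-11, edgeR).

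PGLS, the lactonase that acts just before PGD (chr19:17511629-17521288, plus strand), rose instead. It was at 74.7, 75.0 and 78.4 CPM in SEM::mock and at 142, 144 and 138 CPM in SEM::EGR3, with no overlap and a log2 fold change of 0.89 (SE 0.0596, adjusted p 1.56e-12, edgeR). PGLS and PGD, which catalyse consecutive steps, thus moved in opposite directions. TKT, transketolase, rose by a log2 fold change of 0.30 from a mean of 191 ± 7.62 to 237 ± 15.3 CPM (SD, n = 3). RPIA, ribose 5-phosphate isomerase, rose by 0.31 (adjusted p 0.00624, edgeR) with overlapping groups, a call lost without SEM::mock replicate 1 (0.0522) or SEM::EGR3 replicate 1 (0.0726). RPE, the epimerase of ribulose 5-phosphate, fell by 0.30 (adjusted p 0.00420, edgeR). Of further genes named by size, RBKS, ribokinase, rose by 2.09 from 6, 4 and 2 counts to 39, 32 and 27 counts.

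The citrate cycle genes moved least, with a median size of the log2 fold change of 0.14. Of 11 genes 3 were higher (27.3%), 2 lower (18.2%) and 6 not called. Over all tested genes 36.5% were higher and 32.0% lower. CS, citrate synthase, was at 177, 166 and 162 CPM in SEM::mock and at 159, 165 and 155 CPM in SEM::EGR3. Its groups overlapped, and the log2 fold change of -0.08 (95% interval -0.19 to 0.04) was not called (adjusted p 0.225, edgeR). The other genes not called were IDH3A, IDH3B, SUCLG1, FH and MDH1, with log2 fold changes between -0.10 and 0.14. Their 95% intervals lay between -0.23 and 0.27. Without SEM::mock replicate 1 SUCLG1 was called lower (adjusted p 0.0305), and without SEM::EGR3 replicate 2 IDH3A was called higher (0.0499). IDH3A was also called higher with upper-quartile factors (adjusted p 0.0441), without normalization factors (0.00658) and with a minimum of 10 counts in each library (0.0142). OGDH, a subunit of the 2-oxoglutarate dehydrogenase complex, rose by 0.24, a call lost without SEM::mock replicate 3 (adjusted p 0.0690), and SUCLG2, the GTP-specific succinate-CoA ligase subunit, fell by 0.44.

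IDH2 and MDH2 were the exceptions. IDH2, the mitochondrial isocitrate dehydrogenase that uses NADP (chr15:90083045-90102504, minus strand), was at 105, 116 and 118 CPM in SEM::mock and at 267, 272 and 278 CPM in SEM::EGR3. The groups were far apart, with a log2 fold change of 1.27 (SE 0.0584, adjusted p 9.39e-16, edgeR). IDH1, its cytosolic counterpart, was at 25.8, 25.1 and 34.7 CPM against 34.4, 32.3 and 33.9 CPM. Replicate 3 of SEM::mock was as high as the SEM::EGR3 libraries, and the log2 fold change of 0.25 (SE 0.101, adjusted p 0.0328, edgeR) was lost with DESeq2 (adjusted p 0.0982). Leaving out SEM::mock replicate 1 (adjusted p 0.194), SEM::mock replicate 2 (0.246), SEM::EGR3 replicate 1 (0.0886) or SEM::EGR3 replicate 3 (0.0612) ended the call too. The antisense row IDH1-AS1 held up to 14.6% as many counts as IDH1. MDH2, mitochondrial malate dehydrogenase (chr7:76048051-76067508, plus strand), was at 851, 866 and 850.1 CPM against 463, 483 and 489.7 CPM. It fell by 0.84 (SE 0.0491, adjusted p 1.12e-13, edgeR), whereas cytosolic MDH1 had means of 249 ± 4.72 and 256 ± 12.0 CPM (SD, n = 3) and was not called.

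Citrate leaves the mitochondrion through the carrier SLC25A1 and is split to acetyl-CoA by ATP citrate lyase for lipid synthesis. ACLY was at 188, 190.4 and 185 CPM in SEM::mock and at 147, 116 and 146 CPM in SEM::EGR3. It fell by 0.45 on the log2 scale (SE 0.0701, adjusted p 3.43e-06, edgeR), with replicate 2 of SEM::EGR3 lower than the others. The carrier SLC25A1, chosen after its values were seen, fell by 1.42. ME2, the mitochondrial malic enzyme, rose by 0.27 from 59.7 ± 3.85 to 71.7 ± 0.746 CPM (SD, n = 3), and ME3, a further mitochondrial malic enzyme named by size, rose by 2.19 from 7, 5 and 7 counts to 74, 43 and 49 counts.

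The proportions within isozyme and subunit pairs were compared inside each library, where no scaling between libraries is needed. Of 13 pairs 12 could be computed, and the log2 ratios of the lines did not overlap for 11. No share over other gene pairs was computed, and 70.1% of all tested genes taken alone did not overlap, so the count sets these pairs little apart. Each of these 11 had p = 0.1 in a two-sided exact permutation test, the smallest value that 3 against 3 libraries allow, and 0.109 after adjustment over 12 pairs, so none can pass 0.05. The largest difference in log2 ratio was that of PDK3 to PDK1, given above. SLC2A3 fell from 36.2% ± 1.20 to 18.9% ± 0.196 of the counts of both transporters, a difference in log2 ratio of -1.28. IDH1 went from 20.1% ± 2.52 to 11.0% ± 0.397 of the counts of IDH1 and IDH2, a difference of -1.03 (SD, n = 3). The shares are of counts at 3′ ends and not of protein.

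Cytosolic MDH1 took 22.6% ± 0.358 of the malate dehydrogenase pair in SEM::mock and 34.9% ± 1.03 in SEM::EGR3, and HK2 took 19.8% ± 1.56 and 30.6% ± 1.40 of the hexokinase pair (SD, n = 3). In both pairs the other partner, MDH2 or HK1, fell. Smaller differences in log2 ratio were found for PFKM to PFKL (-0.39), SUCLG2 to SUCLG1 (-0.35), IDH3B to IDH3A (-0.23) and PFKP to PFKL (0.17). Only ENO2 to ENO1 overlapped between the lines, with 0.620% ± 0.0292 against 0.698% ± 0.0935 of the pair (SD, n = 3, exact permutation p = 0.3). The ALDOC to ALDOA ratio was not computed because ALDOA lay at the limit of detection.

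**Figure D4:**
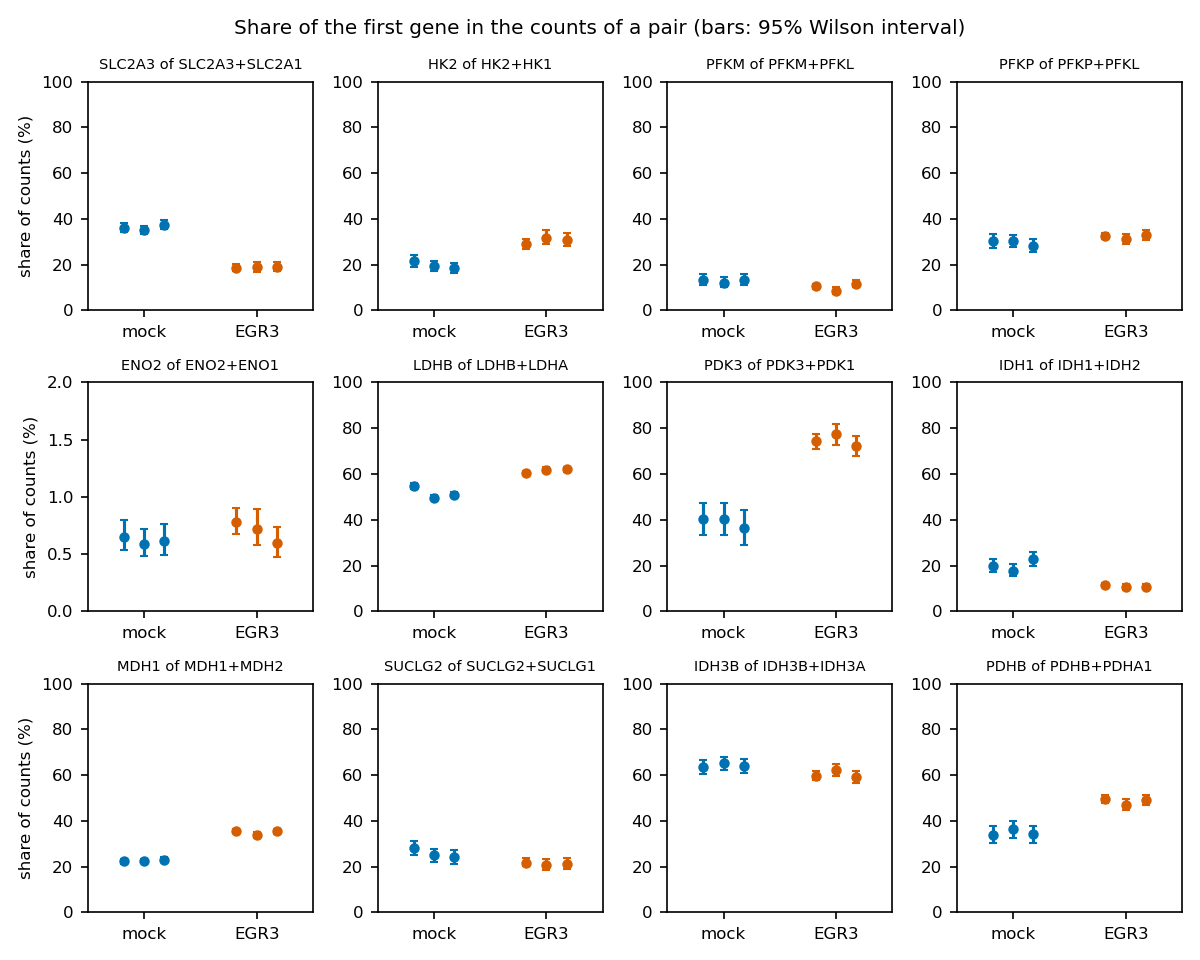
Share (%) of the first gene in the summed counts of 12 gene pairs in each library, with 95% Wilson intervals that cover counting error only, and with an axis to 2% for ENO2. PDK3 passes from 36.2% to 40.2% in SEM::mock to 72.4% to 77.7% in SEM::EGR3, and the enolase pair is the only one with overlapping lines.

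Among the further pathway genes, the rule of size named 10, and the ones not yet given stand at the edges of glycolysis. PGM1, the phosphoglucomutase that links glycogen to glycolysis, was at 0 in all 3 SEM::mock libraries, whereas SEM::EGR3 had 288, 126 and 178 counts. With SEM::mock set at 3 counts per library, its level was at least 34.1-fold higher in the EGR3 line. GPD1, cytosolic glycerol 3-phosphate dehydrogenase, had 7 counts in all in SEM::mock against 233 in SEM::EGR3, a ratio of levels of 17.4 (95% counting interval 8.32 to 43.8). TIGAR, a p53-induced fructose bisphosphatase, had 8 against 109 counts, a ratio of 7.13 (3.49 to 16.9). The hexose transporter gene SLC2A6 rose by a log2 fold change of 3.54, to 164, 81 and 93 counts from 6, 4 and 5. PKLR, the pyruvate kinase of liver and red cells, fell by 2.79 from 13, 14 and 11 counts to 1, 4 and 5 counts, while PKM rose. Most of these genes were scarce in SEM::mock.

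Promoter sequences were read for 40 of the 42 genes from RefSeq (GRCh38.p14), SLC2A3 and OGDH not being in that set. In the 250 bases before the gene start, on either strand, the letters GCGTGGGCG or GCGGGGGCG, forms of the EGR family motif, were found in PDHA1, TKT and PGD (3 of 40), against 5.30% of 27305 promoters. PDHA1 and TKT rose and PGD fell. None of the 4 large movers with a promoter entry held these letters. The E-box CACGTG, to which MYC and its relatives bind, was found in ALDOC, GAPDH, LDHA and PDHB (10.0%, against 6.49% of all promoters). The letters ACGTG, the core of the hypoxia response element, which also lie within the E-box, were found in 12 genes (30.0%, against 18.7%). A match is a description of the letters and does not show that a factor was bound.

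Stretches upstream of the gene start are shown for PDHA1 and PGD, which hold an EGR motif and moved in opposite directions, and for PDHB and LDHA, which hold an E-box and likewise moved in opposite directions. They are written 5′ to 3′ on the strand of the gene with the motif in capitals, and bases in an exon of the gene in GENCODE 29 were left out. The EGR motif begins 87 bases before the RefSeq start in PDHA1 (chrX:19343677-19343892, plus strand) and 232 bases before it in PGD (chr1:10398814-10399043, plus strand), where GENCODE 29 also has an upstream start, so that the PGD stretch is intronic there.
PDHA1: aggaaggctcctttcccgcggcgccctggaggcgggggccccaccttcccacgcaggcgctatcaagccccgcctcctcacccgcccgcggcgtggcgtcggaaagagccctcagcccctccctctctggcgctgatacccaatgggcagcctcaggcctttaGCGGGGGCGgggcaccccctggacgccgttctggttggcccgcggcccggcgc
PGD: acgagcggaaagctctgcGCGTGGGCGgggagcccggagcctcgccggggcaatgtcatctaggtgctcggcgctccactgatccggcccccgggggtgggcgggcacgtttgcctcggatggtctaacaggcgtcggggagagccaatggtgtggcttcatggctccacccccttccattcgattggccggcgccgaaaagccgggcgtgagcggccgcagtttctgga
The E-box shown begins 236 bases before the start in PDHB (chr3:58433858-58434082, minus strand) and 185 bases before it in LDHA (chr11:18394313-18394387, plus strand). LDHA has 1 further E-box in the 250 bases, which lies in the part left out.
PDHB: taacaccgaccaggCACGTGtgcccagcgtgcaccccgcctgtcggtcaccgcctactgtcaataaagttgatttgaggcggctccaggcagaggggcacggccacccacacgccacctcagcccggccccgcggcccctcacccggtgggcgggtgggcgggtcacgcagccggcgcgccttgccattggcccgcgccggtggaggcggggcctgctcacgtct
LDHA: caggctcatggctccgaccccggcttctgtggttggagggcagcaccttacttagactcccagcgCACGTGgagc

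The calls were compared with those of the respiratory chain subunits, the neighbouring pathway in the mitochondrion. Of 81 tested subunit genes 14 rose (17.3%), 38 fell (46.9%) and 29 were not called, against 36.5% higher and 32.0% lower over all tested genes. Their median log2 fold change was -0.12 and their median size 0.16, against 0.38 for the 41 metabolic genes. The difference between the gene groups was not tested. Of the 42 genes, ALDOA included, 23 share exon bases with another gene in GENCODE 29, 7 of them on the same strand. The use of strand in counting is not given in the sources used here. Pseudogene rows exist for 18 of the 42 genes, 75 rows in all.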

How the data were processed

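MACE-Seq libraries of 3 SEM::mock and 3 SEM::EGR3 samples were grouped by their labels. Whole counts per gene and library without normalization were deposited by the authors and used here, whereas the same counts scaled to CPM under the name TPM, and a signal of counts divided by a size factor, which the authors also deposited, were not used. Their deposited fold changes and p-values were not used. The submitters' processing notes name bcl2fastq, Bowtie2, HTSeq and GRCh38, and versions and strand are not given in the sources used here. The column headings spell the line ERG3. The listed genes hold 73.6% to 75.8% of the library totals behind the CPM values, and Wilson intervals, the intervals of count ratios and the limit of 3 counts cover counting error only, whereas intervals of log2 fold changes rest on the spread between libraries.

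Counts were fitted in edgeR 4.0.16 (R 4.3.3) with filterByExpr, TMM, glmQLFit and glmQLFTest on all 6 libraries, two-sided, adjusted by Benjamini-Hochberg over 15465 genes. CPM in the text are these counts scaled to 1000000 after TMM. Standard errors came from the log2 fold change and the F statistic. The fit was tested on simulated data. Pair ratios used a constant of 0.5 and an exact permutation test (scipy 1.17.1). The 42 genes and all lists were chosen with earlier results of these data known. All 42 were named, and of each other list up to 10 genes past adjusted p 0.05 with a log2 fold change of at least 1 in size, by size. Some further genes of these lists are left out of the text. Alternatives were DESeq2 1.42.0, RLE, upper-quartile or no normalization factors, no filter, a minimum of 10 counts in each library, added pseudogene rows, the replicate number as a block and leaving out each library. Replicates of a line differed by more than counting noise (chi-square per degree of freedom 1.71 to 3.32). Positions are from GENCODE 29.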

Additional observations from a re-analysis of the deposited data

How the results depend on the processing

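Over 14 alternatives, 550 of 574 values of the 41 genes kept their side of the threshold, 15 lost the call and 9 gained one, and 31 genes kept their side throughout. The sign changed in 6 values, all of genes not called: LDHB (0.02) and FH (0.01) without normalization factors, and PFKM without SEM::mock replicate 1 or 2 or SEM::EGR3 replicate 1 or 3 (-0.04 to -0.02). No called gene changed sign. GAPDH and PGAM1 lost theirs without normalization factors (adjusted p 0.123 and 0.0785) and with a minimum of 10 counts in each library (0.0595 and 0.0549). IDH3A gained a call with upper-quartile factors (0.0441), without factors (0.00658) and with that minimum (0.0142). The calls of IDH1, PGAM1, RPIA and OGDH that depend on a library are given with their values. Leaving out a library gave 11 to 14 genes higher, 16 to 20 lower, 3 to 3 higher and 2 to 4 lower by a log2 fold change of at least 1. The 4 came without SEM::mock replicate 1, where SLC2A1 (-1.01) and HK1 (-1.06) passed 1. Calls over all genes ranged from 5312 to 5570 higher and 4626 to 4940 lower when a library was left out. Under the other settings they ranged from 4251 to 6828 higher and 4230 to 5140 lower. These settings also differ in the genes tested, 12801 with a minimum of 10 counts in each library and 34056 with no filter. How much each setting adds to the range was not tested. Same-numbered replicates did not deviate together (correlations -0.14, -0.09 and -0.04). With 3 libraries per line this cannot show whether same-numbered samples were handled together. With the replicate block 13 genes were higher and 17 lower, as without it. All 96 alternative values of the 12 pairs kept their direction. Counts of fewer than 10 per library in a line limit the values of PGM1, PKLR, RBKS, TIGAR, GPD1 and SLC16A7, among others.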

Other observations

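Of 18 listed genes known to be induced in hypoxia 14 were tested by edgeR, with a median log2 fold change of 0.49. In SEM::EGR3 7 were higher (50%, against 36.5% of all tested genes) and 3 lower (21.4%, against 32.0%). The list holds none of the 42 metabolic genes. It therefore leaves out PDK1, described above as induced in hypoxia, which fell by 0.82. The glycolysis genes with transport and lactate dehydrogenase are left out as well, of which 10 of 18 tested fell and 3 rose. The shares thus describe this list alone and not all genes induced in hypoxia. KDM4B, a histone demethylase gene, was at 39.1, 50.4 and 47.7 CPM in SEM::mock and at 145, 134 and 133 CPM in SEM::EGR3, a log2 fold change of 1.59. STC2, a secreted glycoprotein gene, rose by 1.58. EGLN3, a prolyl hydroxylase of the HIF pathway, fell by 1.72 from 21.9, 24.6 and 19.8 CPM to 6.19, 7.41 and 6.96 CPM, and BNIP3, a mitophagy receptor gene, fell by 1.14.

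Of 16 listed genes for regulators of metabolism 14 were tested, with a median log2 fold change of 0.17. Among them 7 were higher (50%, against 36.5% of all tested genes) and 4 lower (28.6%, against 32.0%). MLXIPL, the glucose-responsive factor ChREBP, was counted 14, 4 and 9 times in SEM::mock, against 543, 281 and 318 times in SEM::EGR3. Its log2 fold change was 4.46 (SE 0.188, adjusted p 1.73e-16, edgeR). From the same list and chosen after their values were seen, MLXIP and MLX fell by 0.91 and 0.46. TXNIP, chosen likewise, was not called with a log2 fold change of 0.03. HIF1A, the alpha subunit of the hypoxia-inducible factor, was at 19.4, 24.3 and 17.5 CPM against 58.6, 48.5 and 59.7 CPM, a log2 fold change of 1.45. MYC, chosen after its values were seen, fell by 0.79 from 163, 172 and 180.0 CPM to 99.7, 94.2 and 104 CPM. Whether these regulators bear on the metabolic genes was not tested.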
